A study of Arabidopsis thaliana with 4 samples.

Results

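The neighbouring chloroplast genes atpB and atpE, with the leader of atpB, were examined in RNA recovered with the protein dPPRrbcL. They share the spacer upstream of rbcL with that gene and are read from the opposite strand. The members are 3 intervals on the chloroplast genome (TAIR10.1 assembly), out of 131 measured (130 annotated genes and the leader). atpB (ArthCp029) lies at 52660 to 54156 and atpE (ArthCp028) at 52265 to 52663, both on the minus strand and each in 1 exon. The leader was set as the 544 nt upstream of the atpB start codon, starting at 54157. The annotation assigns the leader to no gene and gives these genes no untranslated regions.

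An HA-tag antibody was used to pull protein and bound RNA out of chloroplast stroma, and the RNA was sequenced (RIP-seq). The 2 dPPRrbcL libraries came from 2-week-old Arabidopsis thaliana plants of a transgenic line for dPPRrbcL, and the 2 WT libraries from Col-0 plants of the same age, which give the background. The design asked whether dPPRrbcL associates with the rbcL mRNA and which other RNAs come with it. The transgene's promoter and the number of independent lines are not given in the sources used here, nor is it stated that the replicates came from separate plants, so p-values measure the spread between these libraries. The chloroplast genome was covered on average 12167 and 12762 times in dPPRrbcL and 12917 and 10373 times in WT. rRNA took 90.4% and 91.5% of the coverage in dPPRrbcL and 98.9% and 98.5% in WT. Values scaled to the library total move with this share, so changes are also given by the median ratio and relative to all positions outside rRNA and tRNA genes. For the median ratio, each library was scaled by the median ratio of its features, or of its windows, to their geometric mean over libraries. Only features or windows with coverage in every library entered that median.

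The chloroplast ATP synthase uses the proton gradient across the thylakoid membrane to make ATP. atpB encodes the β subunit, which carries the catalytic sites of the soluble CF1 head, and atpE the ε subunit of the rotating central stalk, which also restrains ATP hydrolysis. The genes can be transcribed together from the spacer shared with rbcL, the gene of the Rubisco large subunit. Transcript starts were not mapped here. Proteins with pentatricopeptide repeats (PPR) bind single-stranded RNA of plant organelles through repeats that each contact about a single base.

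The junction of both reading frames is shown because it is the reason why reads there belong to both genes. The last 4 bases of atpB are the first 4 of atpE, and these are in capitals in the minus-strand sequence of chloroplast:52633-52690.
atpB-atpE junction: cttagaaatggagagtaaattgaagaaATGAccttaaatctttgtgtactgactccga

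All 3 intervals had more coverage in dPPRrbcL than in WT when scaled to the library total, as did nearly every gene. atpB was covered by 2091 and 1984 reads per nucleotide in dPPRrbcL and by 222 and 261 in WT. In relation to the mean coverage of the library, these levels were 16.4% ± 1.16 (SD, n = 2) and 2.12% ± 0.566 (SD, n = 2). The groups did not overlap. atpB rose by 2.93 on the log2(scaled coverage + 10) scale (SE 0.22, limma with Benjamini-Hochberg adjusted p = 6.88e-06), but fell by 0.77 (limma adjusted p = 0.00269) when libraries were scaled by the median ratio over features.

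atpE was covered by 1277 and 1286 reads per nucleotide in dPPRrbcL and by 86.7 and 72.2 in WT. Its levels were 10.3% ± 0.294 of the library mean in dPPRrbcL and 0.683% ± 0.0172 in WT (SD, n = 2 each), so its replicates lay closer together than those of atpB. atpE rose by 3.76 (SE 0.16, limma adjusted p = 1.16e-06), whereas by the median ratio its change of 0.15 was not called (limma adjusted p = 0.552).

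The leader was covered by 822 and 718 reads per nucleotide in dPPRrbcL and by 43.1 and 65.8 in WT, again without overlap. It rose by 3.51 (SE 0.28, limma adjusted p = 8.65e-06), with a change of -0.01 by the median ratio (limma adjusted p = 0.938). Coverage is not given by strand, and RNA of the opposite strand counts in these values as well.

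**Figure D1:**
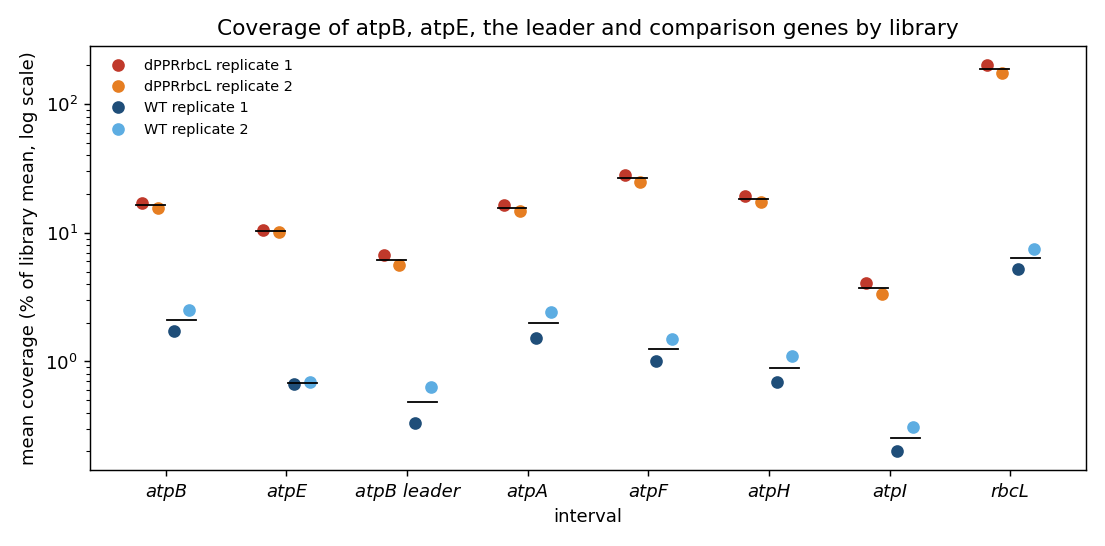
Mean coverage of each interval as a percentage of the library's mean coverage (log scale), with 1 point per library and a bar at each group mean. Both dPPRrbcL libraries lie above both WT libraries in every interval, and the levels of atpB (16.4% against 2.12%) lie next to those of atpA (15.6% against 1.98%).

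These calls do not set the members apart, since 97.3% of the 113 features tested were higher in dPPRrbcL by the same fit. No feature was lower (limma), and none was lower at an unadjusted p under 0.05. Against this background, the log2 ratio of group means without a pseudocount was 2.95 ± 0.40 (SD) for atpB, 3.91 ± 0.05 for atpE and 3.68 ± 0.68 for the leader. The median of the 109 genes covered in every library was 3.82 by the same measure. Thus atpB lay 0.87 below the median gene, atpE 0.09 above it and the leader 0.15 below it, and 80 of the 109 genes had a larger ratio than atpB.

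The position of a member relative to the median gene moved with the pseudocount, which lowers the change of weakly covered genes. With a pseudocount of 10, atpB lay 0.10 below the median gene, with 1 it lay 0.84 below, and with 100 it lay 0.89 above. At a pseudocount of 10, it lay 0.20 below without WT replicate 1 and 0.0015 below without WT replicate 2, and the leader, 0.49 above the median gene, lay 0.26 above it without WT replicate 1. By the median ratio, 30.1% of features were lower and 31% higher, and atpB was among the lower ones. With the sum over positions outside rRNA and tRNA genes as the scale, where 65.5% of features were higher, atpE (0.94, limma adjusted p = 0.00673) and the leader (0.77, limma adjusted p = 0.0111) rose, and atpB had a change of 0.04 that was not called (limma adjusted p = 0.689).

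Shares within a library need no scaling between libraries. atpB and atpE together held 3.11% and 3.24% of the coverage of all protein-coding genes in dPPRrbcL, and 4.62% and 4.38% in WT. The share was thus 1.32 percentage points lower in dPPRrbcL, with no overlap between the groups. rbcL itself held 29.9% of that coverage in dPPRrbcL and 12.0% in WT. With rbcL left out of the sum, the shares of atpB and atpE were 4.44% and 4.62% against 5.27% and 4.96%, a difference of 0.58 points. An exact permutation test (two-sided) over 2 against 2 libraries cannot give a p below 0.333, and it gave 0.333 for both shares.

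The divergent neighbour rbcL (54958 to 56397, plus strand) was the gene in the question of the study. atpB was covered 0.0857 and 0.0894 times as deeply as rbcL in dPPRrbcL, and 0.329 and 0.336 times as deeply in WT. The log2 difference of this ratio was -1.92 ± 0.05 (SD; exact permutation p = 0.333), large beside the distance between replicates. The start codons of both genes lie 801 nt apart.

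The other chloroplast genes of the ATP synthase encode the α subunit of CF1 (atpA) and the b, c and a subunits of the membrane part CF0 (atpF, atpH and atpI). Scaled to the library total, 6 of 6 genes of the list rose, with a median log2 change of 3.63 against 3.03 for the 112 genes tested, a count that the share of 97.3% over all features does not set apart. By the median ratio, atpF (0.67, limma adjusted p = 0.00378) and atpH (0.62, limma adjusted p = 0.00653) rose. By the same scaling atpA fell by 0.73 (limma adjusted p = 0.00413), as did atpB, while atpE and atpI (0.13, limma adjusted p = 0.276) did not pass the threshold. The list median was then 0.14 against 0.13 for all genes. With 2 of the 6 higher and 2 lower, against 31% and 30.1% of all features, these counts do not set the list apart either. Relative to all positions outside rRNA and tRNA genes, 4 of the 6 rose (atpE, atpF, atpH and atpI), and the list median was 0.91 against 0.78. Over all features 65.5% were higher by this scaling, a share that does not set the list apart.

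Among these genes atpF and atpH were the most covered in dPPRrbcL. atpF, with its intron, was covered by 3412 and 3175 reads per nucleotide in dPPRrbcL against 130 and 154 in WT, and atpH by 2347 and 2208 against 89.4 and 114. atpA, at 2014 and 1880 against 197 and 252, was close to atpB in all libraries, and atpI was the least covered at 496 and 429 against 26.1 and 31.9.

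atpB and atpA, whose products alternate in the ring of the CF1 head, were covered almost alike in every library although they lie far apart on the genome. The ratio of atpB to atpA was 1.04 and 1.06 in dPPRrbcL and 1.13 and 1.04 in WT, and the groups overlapped (log2 difference -0.04 ± 0.09 SD, exact permutation p = 1.00). Among the 83 other protein-coding genes tested, atpA was also the one closest to atpB over the 4 libraries, with a Euclidean distance of 0.19 on the log2 scale. It was followed by petB (0.59), which encodes cytochrome b6, and psaA (0.97), which encodes a reaction-centre protein of photosystem I. The genes closest to atpE were psbH (0.41), of photosystem II, and the ribosomal protein genes rps14 (0.86) and rpl33 (0.86).

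On the far side of the unit, coverage fell to a low level before the next gene. trnM (52056 to 52128, plus strand), a tRNA gene 136 nt past atpE, had a mean coverage of 2.89 and 19.4 in dPPRrbcL and of 0.137 and 1.42 in WT, below the minimum mean coverage of 10 for a test. The 136 nt between them still had a coverage of 205 and 313 in dPPRrbcL and of 30.0 and 19.5 in WT. Coverage last reached 10% of the atpE mean 86 and 97 nt past the atpE stop codon in dPPRrbcL, and 99 nt past it in both WT libraries. By this level the end lay at nearly the same place in the 4 libraries. By a level of 50% it was spread more widely, at -35 (inside atpE) and 10 nt in dPPRrbcL and at 54 and 8 nt in WT. Relative to atpE, the 136 nt were covered 0.160 and 0.243 times as deeply in dPPRrbcL and 0.346 and 0.270 times in WT. The groups did not overlap (log2 difference -0.63 ± 0.50 SD, exact permutation p = 0.333). Beyond trnM, the tRNA gene trnV (1.95) and the NDH complex genes ndhC, ndhK and ndhJ (2.84 to 3.19) rose when scaled to the library total, as did accD (2.90), a gene of fatty acid synthesis past rbcL. By the median ratio trnV fell by 1.37 and ndhC by 0.53, and ndhK (-0.31) and ndhJ (0.02) did not pass the threshold. By the same scaling accD had a change of 0.36 that passed it. In WT, accD was covered by only 5.12 and 5.37 reads per nucleotide, with none at 36.3% and 29.4% of its positions. It met the minimum mean coverage of 10 through the dPPRrbcL libraries alone. Its calls under both scalings are therefore given as no support for a difference.

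**Figure D2:**
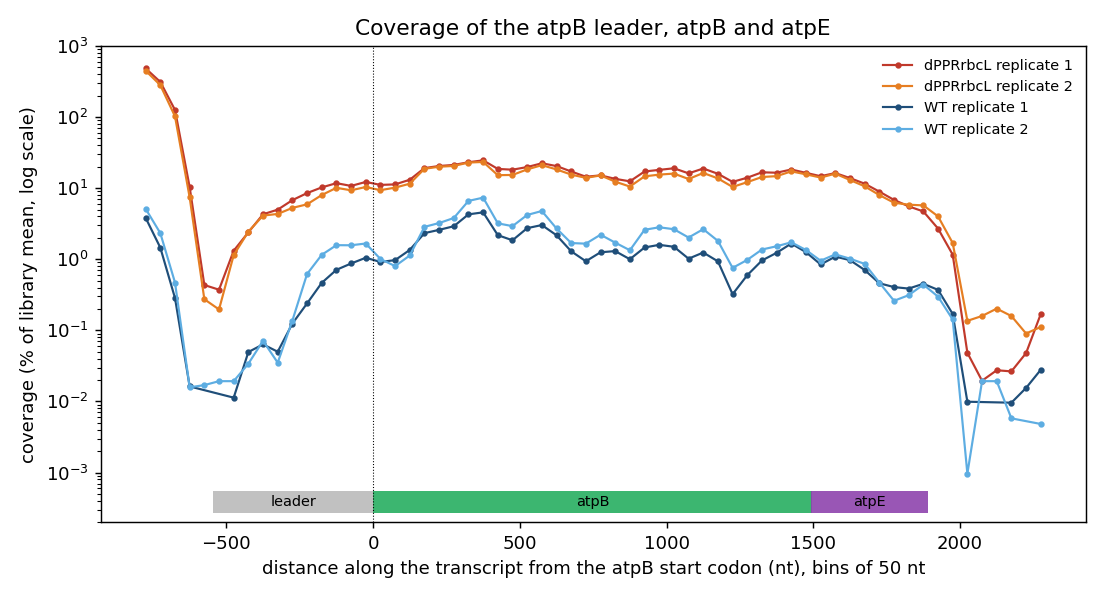
Mean coverage in bins of 50 nt as a percentage of the library mean (log scale) against the distance from the atpB start codon along the transcript, with 1 line per library and bins without reads left out and bridged by the line. The dPPRrbcL lines stay between 9.36% and 24.6% over atpB and fall to a low level past atpE on the right. On the left they fall through the leader to a minimum before the rise towards rbcL. In WT the leader fades closer to the start codon.

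The coverage was not raised evenly along the unit. Within a library, the leader had 0.393 and 0.362 times the coverage of atpB in dPPRrbcL and 0.195 and 0.252 times in WT, and atpE had 0.611 and 0.648 times in dPPRrbcL and 0.391 and 0.276 times in WT. Both ends of the unit, each taken as a whole, were thus higher relative to atpB in dPPRrbcL, without overlap. The log2 differences were 0.77 ± 0.28 (SD) for the leader and 0.94 ± 0.36 for atpE (exact permutation p = 0.333 each). The leader was split at 54400 after its coverage had been seen. The proximal part had 0.626 and 0.567 times the coverage of atpB in dPPRrbcL and 0.396 and 0.534 times in WT. Its log2 difference was 0.37 ± 0.32 (SD), against 2.91 ± 0.30 for the distal part (exact permutation p = 0.333 each). With the median instead of the mean coverage of each interval, the difference for the leader was 2.25. The distal part makes up 300 of the leader's 544 nt and had a WT coverage of only 6.77 and 5.99. The WT median of the leader therefore rests on few reads. The first 300 nt of atpB were covered 1.02 and 1.07 times as deeply as its last 300 nt in dPPRrbcL, and 1.84 and 1.66 times as deeply in WT.

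These ratios were also tested among other genes, in fits chosen after the coverage had been seen. Over 39 pairs of neighbouring protein-coding genes on the same strand, 33.3% had a higher ratio of downstream to upstream gene in dPPRrbcL and 7 pairs a lower one. Among them, atpE to atpB changed by 0.83 (SE 0.19, limma adjusted p = 0.0192), the eighth largest change. With the replicate number as a block, the adjusted p of this change was 0.0536, and with a pseudocount of 100 the change was 0.32 (limma adjusted p = 0.0677). Over 16 protein-coding genes with 544 nt of unannotated sequence upstream, 37.5% had a higher ratio of flank to gene and 6 a lower one. In this fit, atpB changed by 0.59 (SE 0.16, limma adjusted p = 0.00343). That was the sixth largest change, with rbcL first (1.96), whose flank of this length overlaps the atpB leader. In both fits, genes of the inverted repeat count once per copy. Both copies of rps7 to rps12 rank above atpE to atpB, and both of rps12 above atpB. The atpB value did not pass the threshold without dPPRrbcL replicate 1 or 2 (limma adjusted p = 0.117 and 0.0831), and was -0.14 with a pseudocount of 100.

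**Figure D3:**
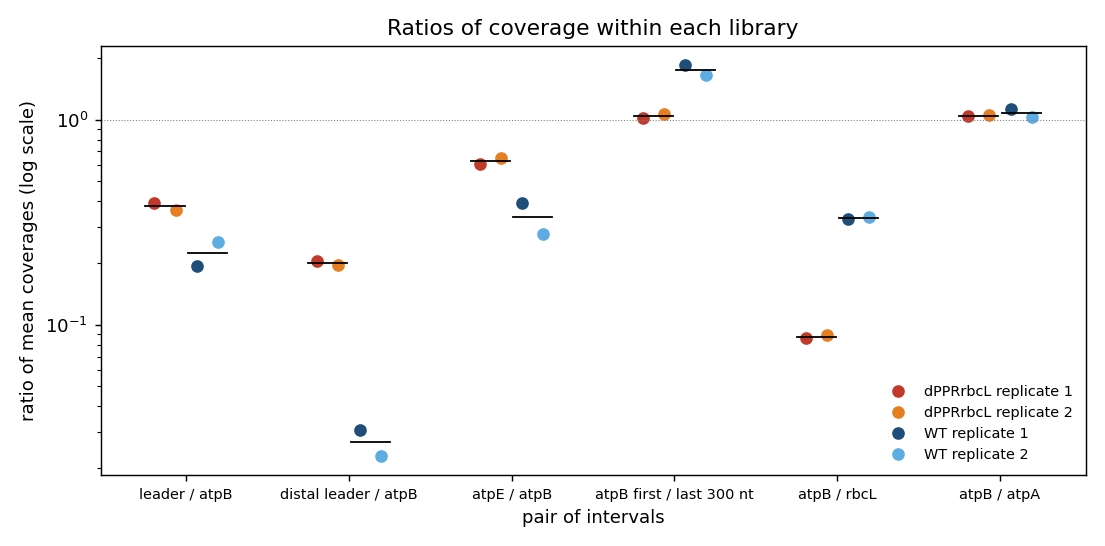
Ratios of mean coverage between 2 intervals of the same library (log scale), with 1 point per library and a bar at each group mean. The groups separate in every pair except atpB to atpA, most widely for the distal leader (0.199 against 0.0267).

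The leader was not uniform. Its proximal part, 54157 to 54400, was covered by 1309 and 1125 reads per nucleotide in dPPRrbcL and by 87.8 and 139 in WT. Its distal part, the 300 nt from 54401 on, was covered by 427 and 386 in dPPRrbcL but only by 6.77 and 5.99 in WT. This border was set after the coverage had been seen, so the values are a description. Relative to atpB, the distal part stood at 0.204 and 0.195 in dPPRrbcL and at 0.0306 and 0.0229 in WT, a ratio of means of 7.46. At the mean ratio of the dPPRrbcL libraries, the WT libraries would have had 44.2 and 52.1 reads per nucleotide there. These values restate the difference in reads, and its cause was not tested.

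The log2 ratio of group means in the distal leader was 5.89 ± 0.18 (SD), against 3.27 ± 0.72 in the proximal leader. The distal value rests on few reads in WT: 21.7% and 1.33% of its positions had none in WT replicates 1 and 2.

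Coverage of the leader thus reached further from atpB in dPPRrbcL. It was at least 10% of the atpB mean up to position 54617, which is 461 nt upstream of the start codon, in both dPPRrbcL libraries. In WT it reached that level up to 234 and 247 nt upstream. By a level of 50%, the edges lay closer together, at 216 and 181 nt in dPPRrbcL and at 113 and 161 nt in WT.

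The sequence just upstream of the dPPRrbcL edge is shown because the exact letters TTGACA, the textbook -35 element of plastid promoters, occur there on the atpB strand. They were searched on both strands between the start codons of atpB and rbcL and found once, 494 to 499 nt upstream of the atpB start codon, which is 33 to 38 nt upstream of position 54617. They are in capitals in the minus-strand sequence of chloroplast:54618-54660.
atpB upstream: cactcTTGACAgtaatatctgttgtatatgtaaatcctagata
Of the 192 stretches of that length in the chloroplast genome, 31.2% hold these letters. The letters TATAAT, searched in the same way, are in none of the 801 nt between the start codons, and 59.9% of stretches of that length hold them. Such a match describes the sequence and is not evidence of a start site.

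Between the start codons of atpB and rbcL, coverage was lowest near the far end of the leader, at 54668 to 54672 in dPPRrbcL replicate 1 (39 reads) and at 54664 to 54666 in replicate 2 (21 reads). WT replicate 1 had no read at 157 positions between the start codons, the first at 54636 and the last at 54792, and WT replicate 2 none at 36 positions. The first 50 nt past the leader were covered by 52.1 and 32.3 reads in dPPRrbcL and by 0 and 2.00 in WT. Past it, the 5′ flank of rbcL (54801 to 54957) had 36202 and 34280 reads in dPPRrbcL and 233 and 265 in WT. The sequence that follows the leader towards rbcL is shown because WT replicate 1 had no read in it, on the plus strand at chloroplast:54701-54760.
Spacer: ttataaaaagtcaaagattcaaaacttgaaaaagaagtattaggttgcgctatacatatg

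Windows of 100 nt placed the same pattern without gene borders. All 24 windows between the atpE stop codon and the end of the leader were higher in dPPRrbcL when scaled to the library total, against 95.6% of the 1372 windows of the genome, and none was lower (limma, also none at an unadjusted p under 0.05). By the median ratio, 3 of the 24 were higher (22.5% genome-wide) and 5 were lower (21.4% genome-wide). The 3 higher windows were those of the distal leader, of which 1 had a WT coverage above the minimum for a test, and the 5 lower ones adjoined each other in the first part of atpB, from 53501 to 54000.

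In the distal leader, the window from 54401 to 54500 had a coverage of 741 and 626 in dPPRrbcL and of 11.9 and 10.3 in WT. Its log2 change was 4.95 (SE 0.26), rank 39 of 1372, and 1.96 by the median ratio (limma adjusted p = 0.00162), rank 40. The next window, 54501 to 54600, had a coverage of 425 and 434 in dPPRrbcL and of 7.50 and 5.74 in WT. The last one, from 54601 on, had 114.5 and 99.1 in dPPRrbcL and 0.910 and 1.93 in WT. These 2 windows met the minimum mean coverage of 10 through the dPPRrbcL libraries alone, so their calls are given as no support for a difference. Neighbouring windows share reads and are not independent.

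**Figure D4:**
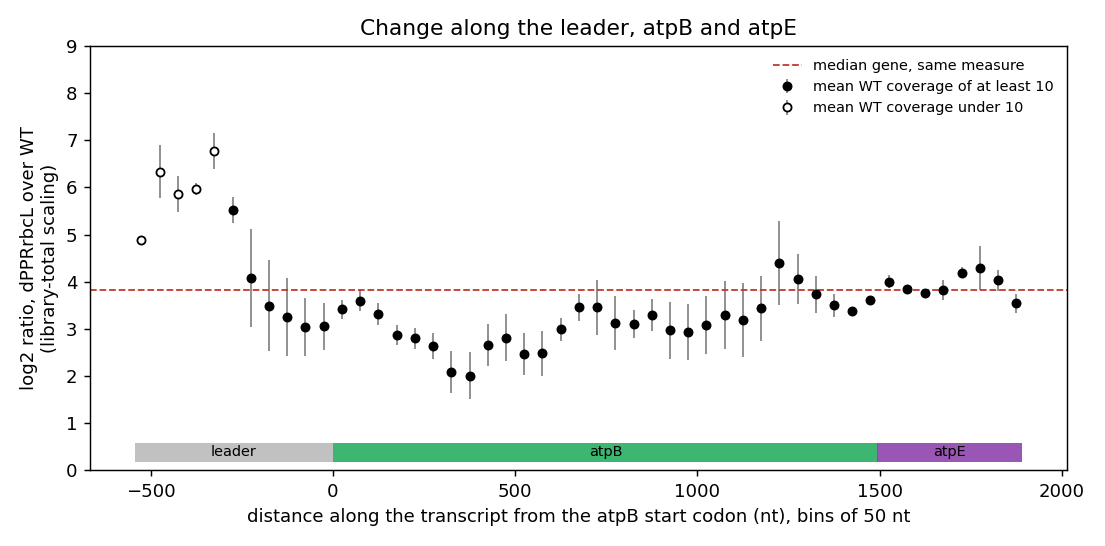
Log2 ratio of group means (dPPRrbcL over WT, scaled to the library total, no pseudocount) in bins of 50 nt against the distance from the atpB start codon, with SD bars over libraries where every library had reads. Bins run from 2.01 in the first part of atpB to 6.77 in the distal leader, the open points mark a mean WT coverage under 10, and the dashed line is the median gene (3.82).

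Within the coding sequences, the log2 ratio of bins of 50 nt ran from 2.01 to 4.39 with a median of 3.31 over 37 bins. The lowest was the bin from 53757 to 53806, which starts 350 nt into atpB, with a coverage of 2993 and 2981 in dPPRrbcL and of 590 and 762 in WT. It is also the bin with the highest coverage in each of the 4 libraries. The highest coding bin, 52907 to 52956, had 1490 and 1326 reads in dPPRrbcL and 41.6 and 78.4 in WT. Over the whole unit, the highest ratio among the 43 bins whose mean coverage in WT reached 10 was 5.53 ± 0.27 (SD), in the bin from 54407 to 54456 in the distal leader.

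The sequences of the lowest and of the highest coding bin are printed as the ends of this range, both on the minus strand. They come from chloroplast:53757-53806 and chloroplast:52907-52956, with GC contents of 42% and 44%.
Lowest coding bin: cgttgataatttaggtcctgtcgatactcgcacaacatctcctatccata
Highest coding bin: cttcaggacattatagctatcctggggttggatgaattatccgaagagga

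The profile over the coding bins was flatter in dPPRrbcL. The SD of log2 coverage over the 37 bins was 0.456 and 0.460 in dPPRrbcL and 0.909 and 1.09 in WT. The highest bin had 4.44 and 3.99 times the coverage of the lowest in dPPRrbcL, and 14.2 and 28.2 times in WT. Over 43 bins of the unit, the correlation of log2 coverage was 0.98 between the dPPRrbcL replicates, 0.92 between the WT replicates and 0.89 to 0.92 between libraries of different groups. These bins include part of the leader, where coverage fell away from atpB in every library. No correlation between libraries is given for the coding bins alone. The log2 ratio fell with the WT coverage of the bin (correlation -0.95 over the 43 bins), and the ratio itself contains the WT value.

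The longest run of letters that the leader shares with the rbcL flank from 54801 to 54957, each read along its own transcript, is 9 nt. Of 562 stretches of the leader's length elsewhere in the chloroplast genome, both strands counted, 50.5% share a run at least as long. For atpB the run is 11 nt (16.7% of 204 stretches of its length) and for atpE 8 nt (80.4% of 772).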

How the data were processed

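RIP-seq coverage was analysed in 4 libraries, 2 from dPPRrbcL and 2 from WT plants, grouped by the sample titles. For each library, the authors deposited the coverage signal of each chloroplast position (reads per nucleotide, per the file headers), as whole numbers with no recorded normalization. The mapper, its settings, the genome build and the use of strand are not given in the sources used here. Positions 1 to 154478 were present in every file, the length of the TAIR10.1 chloroplast, so the RefSeq annotation of that assembly was used. Read totals are unknown, and no counting interval was computed. The number of libraries limits the precision. The replicates were distinct, with equal values at 2.47% (dPPRrbcL) and 16.3% (WT) of positions.

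Mean coverage per gene, introns included, and of the leader was scaled by the mean coverage over the genome (factors 0.864 to 1.08, geometric mean 1). A pseudocount of 10 was added, log2 was taken, and features with a mean coverage of at least 10 (113 of 131) were tested with limma 3.58.1 (R 4.3.3), without covariates, Benjamini-Hochberg threshold 0.05. Windows of 100 nt were tested alike. Since fold changes refer to log2(value + pseudocount), they understate the change of features with low coverage. SDs of log2 ratios or differences are the root of the added group variances. In the scaling outside rRNA and tRNA genes, the inverted-repeat counterparts of rRNA genes were also left out. Within-library ratios were compared by exact permutation (scipy 1.17.1). The fits were checked on simulated data. Named were the members, rbcL, the other ATP synthase genes, adjacent genes, the 3 nearest genes by profile and the extreme bins. Members, lists and tests were chosen with earlier results of these data known. The alternatives comprised scaling, pseudocount, filter, median coverage, interval ends, window size, a replicate block and leaving out each library. Python 3.11.15, numpy 2.4.6, pandas 2.3.3 and matplotlib 3.10.9 were used.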

Additional observations from a re-analysis of the deposited data

How the results depend on the processing

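Of 203 alternative values of 19 results, 146 kept the direction and the side of the threshold or moved little. By the median ratio, the changes were -0.77 for atpB, 0.15 for atpE (not past the threshold) and -0.013 for the leader, and -0.78, 0.15 and -0.013 with a pseudocount of 1. Scaled outside rRNA and tRNA genes, atpB changed by 0.038 and, with a pseudocount of 1, by 0.039, not past the threshold. The excess over the median gene, -0.10 for atpB, was -0.90 by the median ratio, -0.74 outside rRNA and tRNA genes, -0.84 and 0.89 with pseudocounts of 1 and 100, 0.0047 without a filter, and -0.20 to -0.0015 with each library left out. For atpE, 0.73 became 0.024, 0.16, 0.086, 1.21 and 0.84 in the same order, 0.58 with a minimum coverage of 100, 0.62 with median coverage, and 0.59 to 0.87 with each library left out. For the leader, 0.49 became -0.14 by the median ratio, -0.015 outside rRNA and tRNA genes, -0.091 with a pseudocount of 1, 1.62 with median coverage and 0.26 to 0.71 with each library left out.

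Features higher, 110, numbered 35 by the median ratio, and features lower, 0, numbered 34 by it, 17 outside rRNA and tRNA genes, and 0 to 1 with each library left out. Windows higher, 1311, numbered 309 by the median ratio, 650 outside rRNA and tRNA genes, 739 at a minimum coverage of 100, 2603 at 50 nt and 654 at 200 nt. Windows lower, 12, numbered 293, 178, 6 with a pseudocount of 1, 27 at 50 nt, and 6 to 17 with each library left out. Higher windows of the unit, 24, numbered 3 by the median ratio, 10 outside rRNA and tRNA genes, 48 at 50 nt and 11 at 200 nt, and lower ones, 0, numbered 5 and 2 under these scalings.

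The log2 difference of leader to atpB, 0.77, was 2.25 with median coverage, which rests on few reads in WT. The 5′ to 3′ difference of atpB, -0.74, was -0.88 over 500 nt, and that of atpB to rbcL, -1.92, was -2.12 with median coverage. The share difference, -1.32, was -0.58 without rbcL. The flank ratio of atpB, 0.59, was -0.14 with a pseudocount of 100 and 0.46 to 0.71 with each library left out. The pair ratio of atpE to atpB, 0.83, was 0.32 with a pseudocount of 100, not past the threshold. Apart from the scaling and pseudocount, whose construction moves these values, the cause was not tested. With a library left out, the lone library of a group was assumed to vary like the other group.

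Same-numbered libraries did not deviate together (correlation -0.39 over 113 features), and nothing else pairs them. With the replicate block, 106 features were higher and none lower, the changes of atpB, atpE and the leader stayed at 2.93, 3.76 and 3.51 and past the threshold, and the pair ratio stayed at 0.83 but not past it. With the crossed pairing, 110 features were higher and 1 lower.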
